A study of Mus musculus with 2 samples.

Results

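The 7 genes described here, Col1a1, Col1a2, Col3a1, Col5a1, Col5a2, Col5a3 and Col11a1, encode chains of the fibrillar collagens I, III, V and XI. They were found by gene symbol in every deposited comparison, which covered 18 cell clusters and 4 fibroblast subclusters of the infarcted mouse heart, and make up 7 of the 15059 genes in each subcluster table. The 4 subcluster tables hold all 7 genes, while the cluster tables list a gene only where it passed limits on size and detection. Interstitial cells were dissociated from the ventricles of adult mice after myocardial infarction (MI), and viable cells were sorted and profiled by droplet single-cell RNA sequencing in 2 libraries, 1 per genotype. The control library was PostnMCM, a knock-in in which tamoxifen-inducible Cre recombinase (MerCreMer) is expressed from the locus of Postn, a gene of activated fibroblasts. The other library was Yapfl/fl;Wwtr1fl/+;PostnMCM, which carried loxP-flanked alleles of Yap1 (both copies) and of Wwtr1 (a single copy, encoding TAZ) beside the same Cre. Both strains carried the R26-eGFP reporter, both received chow with tamoxifen citrate at 0.4 g/kg from MI onwards, and per the labels both were collected on day 6 after MI, whereas the written methods name the following day. Recombination depends on Postn activity, and cells were not selected for it. In its fibroblast subclusters 0, 3, 4 and 5 the log2 fold changes over control were 0.07, 0.31, 0.04 and 0.26 for Yap1 and 0.15, -0.30, -0.21 and -0.16 for Wwtr1. Reads come from transcript 3′ ends, and whether they cover the deleted parts is not given in the sources used here. Since Yap1 was not lower, the floxed library is named by its label, as the library labelled depleted.

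Fibrillar collagens are secreted as triple-helical procollagens, trimmed outside the cell and crosslinked into fibrils. Type I collagen is built from the chains of Col1a1 and Col1a2 and gives scar its tensile strength, and type III collagen, from Col3a1, forms finer fibrils that appear early in healing tissue. Types V and XI are minor chains that sit within the fibril and set where it starts and how thick it grows. After MI these genes are expressed mainly by fibroblasts and the myofibroblasts that arise from them, in which the coactivators YAP and TAZ act through TEAD transcription factors.

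Each value below is a pair of shares and a log2 fold change. A share is the percent of cells of a cluster with a count of the gene in 1 library. The log2 fold change sets the mean corrected count plus 1 of the library labelled depleted over that of the control, and a negative value stands for a lower mean in the former. With 1 library per genotype no test was made, and no value carries an error because the cells of a library are not replicates of a genotype. The tables also do not hold the cells or depth of each cluster by library. "Lower" and "higher" therefore describe these 2 libraries, and a value is counted in a direction when it reached 0.25 in size and the gene had a count in 25% or more of the cells of a library.

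Across the fibroblast subclusters Col1a1, Col1a2 and Col3a1 stayed within 0.25 in size, and Col5a3 lay past it in every subcluster. Col5a1, Col5a2 and Col11a1 had their lowest values in subcluster 5, while in subclusters 3 and 4 the values of Col5a1 and Col5a2 were no larger in size than those of Col1a2 and Col3a1. Of the 28 values (7 genes in 4 subclusters), 25 came from genes past the detection limit, and 4 of these were lower and 4 higher by the size limit. All 4 lower values were in subcluster 5, named for secretory myofibroblasts. The 4 higher values were in subcluster 0 (epicardial-like markers; Col5a2 and Col5a3), subcluster 3 (proliferating cells; Col5a3) and subcluster 4 (matrifibrocyte markers; Col5a3). Subclusters 0 and 4, and subcluster 2, held mostly control cells, subcluster 1 mostly cells of the library labelled depleted, and subclusters 3 and 5 cells of both. The names and this makeup follow the study and were not rebuilt here, so that fewer cells stand behind the values of the library labelled depleted in subclusters 0 and 4. Col5a3 was thus counted in all 4 subclusters, higher in 3 and lower in 1.

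**Figure D1:**
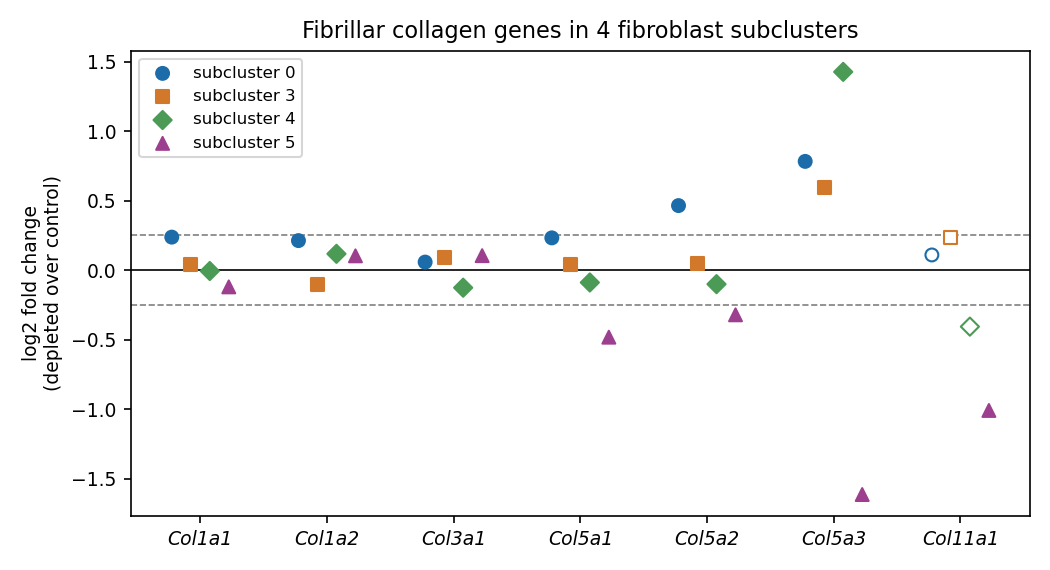
Log2 fold change (y axis, library labelled depleted over control) of the 7 fibrillar collagen genes (x axis) in fibroblast subclusters 0, 3, 4 and 5, with 1 library per genotype and hence no error bars. Dashed lines mark the size limit of 0.25 in both directions and open symbols mark values of Col11a1 detected in under 25% of cells in both libraries. Col1a1, Col1a2 and Col3a1 sit between the dashed lines in every subcluster, whereas Col5a3 ranges from -1.61 in subcluster 5 to 1.43 in subcluster 4.

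These counts were read against all genes past the same detection limit. In subcluster 0 the size limit was reached downwards by 9.87% and upwards by 12.5% of 8490 genes, beside 0 and 2 of 6 fibrillar collagen genes. In subcluster 3 the background was 15.1% lower and 13.8% higher of 9015 genes, beside 0 and 1 of 6. In subcluster 4 it was 19.5% lower and 25.2% higher of 9130 genes, beside 0 and 1 of 6. Nothing is read from so small counts in those 3 subclusters. In subcluster 5 it was 23.5% lower and 20.3% higher of 8349 genes, beside 4 and 0 of 7. The medians over the 7 genes in subclusters 0, 3, 4 and 5 were 0.23, 0.05, -0.09 and -0.32, beside 0.01, -0.01, 0.03 and -0.01 over all genes past the detection limit. Over only the members past that limit they were 0.24, 0.05, -0.05 and -0.32.

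The type I chains, which join in a shared triple helix, were detected in every cell, as was Col3a1. Col1a1 (chr11:94827050-94843868 on GRCm39, plus strand, protein coding) was detected in 100% of cells of both libraries in all 4 subclusters. Its log2 fold changes in subclusters 0, 3, 4 and 5 were 0.24, 0.04, -0.01 and -0.12. Col1a2 (chr6:4504814-4541555, plus strand) was likewise at 100% throughout, with log2 fold changes of 0.21, -0.10, 0.12 and 0.10 in the same order. At full detection the share cannot register a change in level, so for these genes only the fold change bears on the comparison. The difference between the chains' log2 fold changes (Col1a1 minus Col1a2) was 0.03, 0.15, -0.12 and -0.22 in that order, and the chains therefore stayed within 0.25 of each other in each subcluster.

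Col3a1 (chr1:45350698-45395840, plus strand), whose product forms type III collagen as a homotrimer, had the smallest range among the 7 genes across the 4 subclusters. It was detected in 100% of cells in both libraries in each subcluster, with log2 fold changes of 0.06, 0.09, -0.13 and 0.10 in subclusters 0, 3, 4 and 5. The distance between its lowest and highest value was 0.23, against 0.36 for Col1a1 and 0.32 for Col1a2. Among genes detected in at least 95% of cells of both libraries, which are the genes most like these major collagens in detection, the middle 95% of values ran from -0.53 to 0.51 in subcluster 0 (830 genes), -0.54 to 0.38 in subcluster 3 (922 genes), -0.69 to 0.58 in subcluster 4 (728 genes) and -0.98 to 0.74 in subcluster 5 (838 genes). All 12 values of the type I and III chains lay inside these ranges.

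The type V chains Col5a1 and Col5a2 had like values and ranged more widely than the major chains. Col5a1 (chr2:27776397-27929526, plus strand), which encodes the chain present in every common form of type V collagen, was detected in 98.6%, 96.7%, 95% and 100% of control cells in subclusters 0, 3, 4 and 5, and was at 100% in the library labelled depleted throughout. Its log2 fold change was 0.23, 0.04, -0.09 and -0.48 in that order. Col5a2 (chr1:45412554-45542442, minus strand), its usual partner, was detected in 100% of cells of both libraries except in subcluster 3, where the library labelled depleted was at 95.7%. Its log2 fold changes were 0.46, 0.05, -0.10 and -0.32 in the same order. The order of the subclusters was the same for both genes, highest in subcluster 0 and lowest in subcluster 5, and their log2 fold changes differed by -0.23, -0.01, 0.01 and -0.16 (Col5a1 minus Col5a2). The values in subcluster 5 also lay inside the range of widely detected genes given above: of all genes past the detection limit there, 8.76% lay below Col5a1 and 17.8% below Col5a2.

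Col5a3, which encodes another type V chain, of restricted expression, had the widest range among the 7 genes. It lies on chromosome 9 (chr9:20681337-20726418, minus strand) and was detected in 40% of control cells and 59.4% of cells of the library labelled depleted in subcluster 0, with a log2 fold change of 0.78. In subcluster 3 the shares were 30% and 52.2% and the log2 fold change was 0.59. In subcluster 4 they were 30% and 70%, with a log2 fold change of 1.43. The gene was thus detected in more cells of the library labelled depleted, and at a higher mean, in each of these 3 subclusters. In subcluster 5 the direction was the opposite, with shares of 69.6% in the control and 42.9% in the library labelled depleted and a log2 fold change of -1.61. A cell with a count holds at least 1, which places the control mean in subcluster 5 at no less than 3.37 corrected counts per cell and the mean of the library labelled depleted in subcluster 4 at no less than 2.49. Of all genes past the detection limit, 99.3%, 98.2% and 99.8% lay below Col5a3 in subclusters 0, 3 and 4, and 0.383% lay below it in subcluster 5. Its distance from Col5a1 (Col5a1 minus Col5a3) was -0.55, -0.55, -1.51 and 1.13 in subclusters 0, 3, 4 and 5, so the Col5a3 chain lay apart from Col5a1 in all of them.

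Col11a1 (chr3:113824134-114014367, plus strand) encodes a chain of type XI collagen, best known from cartilage and also made by activated fibroblasts. It was rare outside subcluster 5: 1.4% of control cells and 3.1% of cells of the library labelled depleted in subcluster 0, 3.3% and 4.3% in subcluster 3, and 10% in the control of subcluster 4, where it is listed at 0 in the library labelled depleted. Those 10% of control cells held a mean of 3.25 corrected counts each. The log2 fold changes of 0.11 and 0.24 in subclusters 0 and 3 and of -0.41 in subcluster 4 stand on these low shares and are not counted in either direction. The last of them also depends on the pseudocount, since 1 library is at 0, and gives no bound. In subcluster 5 the gene was detected in 43.5% of control cells and 23.8% of cells of the library labelled depleted, with a log2 fold change of -1.01, below which lay 1.55% of the genes past the detection limit. The control mean there was no less than 1.49 corrected counts per cell. In the control library the shares of both Col5a3 and Col11a1 were highest in subcluster 5, and both were lower there in the library labelled depleted.

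**Figure D2:**
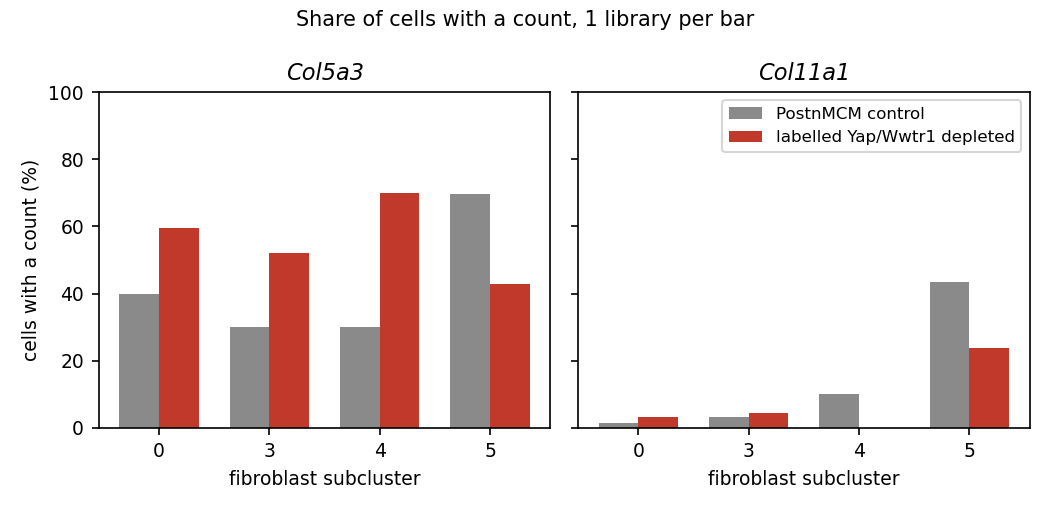
Percent of cells with a count (y axis) of Col5a3 and Col11a1 in fibroblast subclusters 0, 3, 4 and 5 (x axis), with grey bars for the PostnMCM control library and red bars for the library labelled depleted. Each bar is 1 library without error. Col5a3 is detected more widely in the library labelled depleted in subclusters 0, 3 and 4 and less widely in subcluster 5 (69.6% against 42.9%), and Col11a1 exceeds 10% only in subcluster 5.

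Promoter sequence is shown for the gene with the smallest range of log2 fold changes across the 4 subclusters (Col3a1) and the pair with the widest, as context for a comparison that concerns TEAD coactivators. In the RefSeq promoter set used (GRCm38.p6), 5 of the 7 genes were matched by symbol, and Col1a1 and Col5a2 were not. For each matched gene the 250 bases before the start were searched on both strands for CCAAT, bound by NF-Y and long known in type I collagen promoters, for TATAAA, for GGGCGG, bound by Sp1, and for GGAATG, the core of the TEAD site. None of these motifs holds another, and no matches overlapped in the windows shown. Capitals mark every match, on the other strand as its reverse complement.
Col3a1 (chr1:45311288-45311537, plus strand): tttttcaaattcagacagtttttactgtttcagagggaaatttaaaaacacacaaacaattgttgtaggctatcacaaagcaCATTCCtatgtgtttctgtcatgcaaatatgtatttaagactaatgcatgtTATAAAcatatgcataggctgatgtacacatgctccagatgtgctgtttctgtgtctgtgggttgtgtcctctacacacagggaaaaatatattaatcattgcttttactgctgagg
Col5a3 (chr9:20815068-20815317, minus strand): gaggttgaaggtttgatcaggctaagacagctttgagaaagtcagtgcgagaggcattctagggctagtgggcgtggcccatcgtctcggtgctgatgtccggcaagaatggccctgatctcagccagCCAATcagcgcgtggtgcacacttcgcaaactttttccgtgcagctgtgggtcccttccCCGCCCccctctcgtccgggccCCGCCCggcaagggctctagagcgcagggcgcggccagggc
Col11a1 (chr3:114030290-114030539, plus strand): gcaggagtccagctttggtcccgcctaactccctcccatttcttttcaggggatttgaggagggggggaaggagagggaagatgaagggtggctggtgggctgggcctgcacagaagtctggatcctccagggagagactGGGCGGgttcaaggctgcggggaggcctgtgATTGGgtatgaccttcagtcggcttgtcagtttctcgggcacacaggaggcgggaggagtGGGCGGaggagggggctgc
The GGAATG core occurred in 1 of the 5 windows, that of Col3a1, where it starts at position -168 on the minus strand, and in 12.6% of 32851 promoter windows of this length. TATAAA also occurred in Col3a1 alone (12.4% of all windows). CCAAT occurred in Col1a2, Col5a3 and Col11a1 (33.8% of all windows), and GGGCGG in Col1a2, Col5a1, Col5a3 and Col11a1 (32.7%). The windows of Col5a3 and Col11a1 hold 62.8% and 62.4% G and C bases and that of Col3a1 35.2%. A match is a run of letters and not a bound site, and nothing was measured here at these promoters. Col3a1 and Col5a2 are neighbours on chromosome 1, facing each other tail to tail with 16713 bases between them on GRCm39. The 2 neighbours did not move alike, since Col5a2 ranged over 0.79 across the subclusters and Col3a1 over 0.23.

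In the whole fibroblast cluster (cluster 5), whose libraries differ in their mix of subclusters, 2 of the 7 genes passed the limits of the table, both higher in the library labelled depleted, where 1.74% of the 15059 genes were listed as higher. The 15059 genes include those under the detection limit, which cannot be listed, so this share is lower than 1 over detected genes would be. Of the 605 listed genes, 343 were lower and 262 higher. Col3a1 was detected in 100% of cells in both libraries with a log2 fold change of 0.33. Col5a3 was detected in 22.1% of control cells and 44.4% of cells of the library labelled depleted, with a log2 fold change of 0.34. The other 5 genes are not listed, so their changes over the cluster stayed under 0.25 or their detection stayed under 25% in both libraries. Col1a1, Col1a2, Col5a1 and Col5a2 were at 95% or more of cells of both libraries in subclusters 0, 3, 4 and 5. Low detection over the cluster is therefore unlikely for these genes, whereas for Col11a1 either limit may apply. The cluster and its subclusters were normalized separately. The value of Col3a1 in the cluster lay above its value in each of the 4 subclusters, and subclusters 1 and 2 were not analysed here. The value of Col5a3 in the cluster lay between that of subcluster 5 and those of the other subclusters.

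In the other 17 clusters, collagen transcripts were read as background, since the cells the study identified there were mostly immune cells and fibroblasts are the main source of fibrillar collagen. Some immune cells, macrophages among them, can also express collagen genes, and the tables do not tell their own transcripts from free RNA. Col3a1 was listed in 9 of these clusters and was lower in the library labelled depleted in 9 of 9, where 52.2% of the 14826 listings of all genes in these clusters were lower. Of these 9 listings 3 reached 0.5 in size, and 0 had a deposited adjusted p-value under 0.05. It was detected in 26.6% to 50% of control cells (median 36.4%), and the library labelled depleted had shares of 0% to 26% (median 16.9%). The highest control share was in cluster 15 (50% and 18.2%), a small cluster that the study left unidentified or with mixed markers. A gene with the lower share in the library labelled depleted is listed only where its control share reached 25%, so the floor of the control shares follows from the limits of the tables. No value of Col3a1 is given for the 8 clusters that do not list it. In cluster 10 (T cells) the shares were 45.5% and 17.2% and the log2 fold change -0.64, the lowest of the 9, but clusters 9 and 10 held mostly cells of the library labelled depleted, so that fewer control cells stand behind their control shares. In cluster 3 (macrophages and monocytes) they were 41.5% and 26%, with a log2 fold change of -0.27, the smallest in size. In cluster 17 (dendritic cells) the control was at 35%, and the gene is listed at 0 in the library labelled depleted. In cluster 18 (neutrophils) the shares were 36.4% and 5.9% with a log2 fold change of -0.31. The direction in these clusters was the opposite of that in the fibroblast cluster, where Col3a1 was higher by 0.33.

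**Figure D3:**
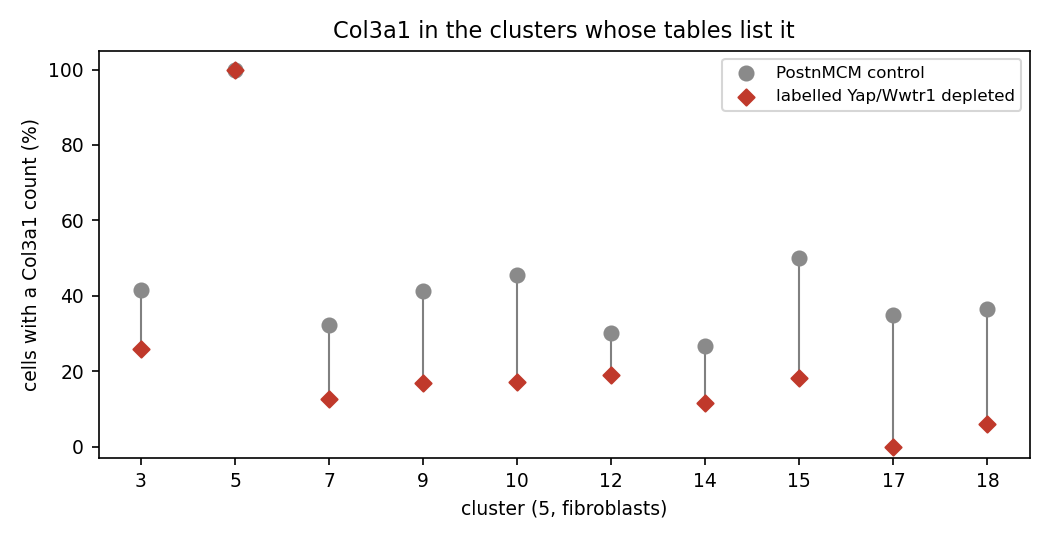
Percent of cells with a Col3a1 count (y axis) in the 10 clusters whose tables list the gene (x axis), with grey circles for the PostnMCM control library and red diamonds for the library labelled depleted, joined within a cluster. Both libraries are at 100% in fibroblast cluster 5, where the symbols overlap, while in the other 9 clusters the control lies between 26.6% and 50% and the library labelled depleted between 0% and 26%.

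Of the remaining members, Col5a1 was listed in a single other cluster, the neutrophils of cluster 18, with shares of 9.1% in the control and 29.4% in the library labelled depleted and a log2 fold change of 0.31. In that cluster Col5a1 and Col3a1 had opposite directions, each listed only through the library where its share was higher. The Col5a1 listing did not remain at 0.5 in size or under the adjusted p-value filter, and the cells behind these shares are not given. Col1a1, Col1a2, Col5a2, Col5a3 and Col11a1 were listed in none of the 17. Of all genes in the lists of other collagens, fibril-associated matrix and fibroblast markers, 4 were listed there, a tally made after the values were seen. Sparc was lower in 3 of 3 clusters, with shares of 36.4% and 7% in cluster 10, and Dcn in 1 of 1, with 30.2% and 6.3% in cluster 12. Fn1, which macrophages also express, was lower in 4 and higher in 3 clusters, and Gsn lower in 1 and higher in 2. Without the depths or cell numbers of these clusters, the part of free RNA in the Col3a1 listings was not tested.

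The genes that act on fibrillar collagen were described from fixed lists in the same 4 subclusters. Their counts stand beside the shares of all genes given above, which were 9.87% lower and 12.5% higher in subcluster 0, 15.1% and 13.8% in subcluster 3, 19.5% and 25.2% in subcluster 4, and 23.5% and 20.3% in subcluster 5, and no difference between lists was tested. The non-fibrillar collagens (11 genes, among them the basement membrane chains of type IV and the microfibrillar chains of type VI) were mostly higher in subcluster 0 and lower in subcluster 5. In subcluster 0, 0 were lower and 6 higher of 9 past the detection limit, with a median of 0.40. In subcluster 3, 2 were lower and 2 higher of 10 (median 0.09), and in subcluster 4, 3 were lower and 5 higher of 9 (median 0.26). In subcluster 5, 8 were lower and 0 higher of 11, with a median of -0.50. The share of cells was lower there for 2 of the 11, so most of the lower means came without a lower share. Col16a1, which encodes a collagen that associates with fibrils, was the member of this list past 0.25 in the same direction in 3 subclusters, at 0.38, 0.26 and 0.28 in subclusters 0, 3 and 4 and 0.21 in subcluster 5. Of the other fibrillar collagens, Col2a1 is not in the tables and Col11a2 was at 4.3% of cells or less. Col24a1 passed the detection limit in subcluster 0 (34.5% and 37.5% of cells, 0.41), subcluster 3 (30% and 43.5%, 0.22) and subcluster 4 (15% and 40%, 0.56). Col27a1 passed it in subcluster 4 (37.5% and 20%, -0.25) and subcluster 5 (39.1% and 47.6%, -0.56).

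Of the endoplasmic reticulum enzymes and chaperones that fold and hydroxylate procollagen, 10 of 14 were lower and 0 higher in subcluster 5, beside 23.5% and 20.3% of all genes, with a median of -0.31, close to the -0.32 of the fibrillar chains themselves. In subclusters 0, 3 and 4 the list had 4 lower and 3 higher of 14, 2 and 3 of 14, and 5 and 2 of 13, with medians of -0.00, 0.03 and -0.09. Plod3, a lysyl hydroxylase that also adds sugars to collagen, was lower in 3 of the 4 by the size limit, at -0.30 in subcluster 3 (86.7% and 65.2% of cells), -0.79 in subcluster 4 (87.5% and 50%) and -0.30 in subcluster 5 (91.3% and 76.2%), and stood at -0.24 in subcluster 0.

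Among the enzymes that trim and crosslink procollagen, 0 were lower and 3 higher of 9 in subcluster 0, 1 and 1 of 8 in subcluster 3, 4 and 3 of 9 in subcluster 4, and 4 and 1 of 10 in subcluster 5, with medians of 0.18, -0.04, -0.07 and -0.12. In subcluster 5 the share of cells was lower for 0 of the 11 genes of this list. Bmp1, the protease that removes the carboxyl propeptide of the fibrillar procollagens, was higher in subcluster 0 (0.63), subcluster 3 (0.71) and subcluster 4 (0.79) and stood at -0.13 in subcluster 5. The signs are those of Col5a3, but in subcluster 5 the Bmp1 value is inside the size limit, against -1.61 for Col5a3. How many of all genes have these signs was not counted, and a link between the 2 genes was not tested.

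Of the proteins that bind to or lie beside fibrils, 1 was lower and 3 higher of 7 in subcluster 0, 1 and 2 of 7 in subcluster 3, 6 and 0 of 9 in subcluster 4, and 2 and 2 of 9 in subcluster 5, with medians of 0.16, 0.13, -0.32 and -0.00. Cthrc1, a secreted protein of injury-activated fibroblasts, was lower in subcluster 0 (-0.29), subcluster 3 (46.7% and 21.7% of cells, -1.42) and subcluster 4 (70% and 10%, -3.05). In subcluster 5, the shares were 82.6% and 100%, with a log2 fold change of -0.14. Cthrc1 and Col5a3 thus moved in opposite directions in subclusters 0, 3 and 4.

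**Figure D4:**
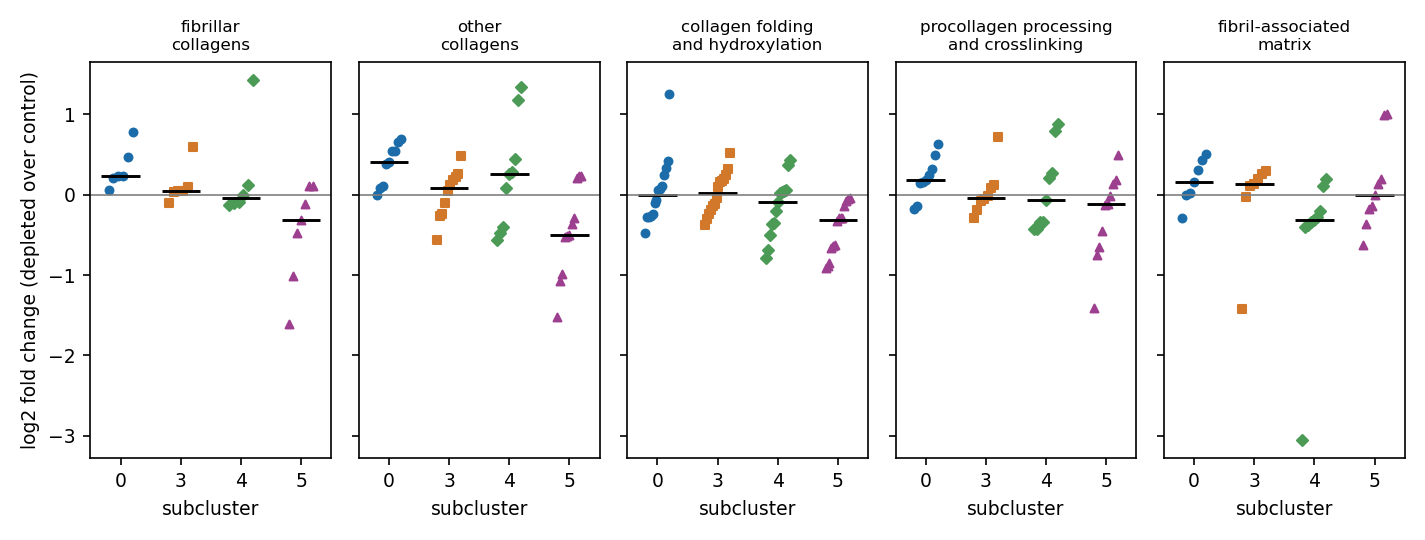
Log2 fold change (y axis, library labelled depleted over control) of single genes (symbols) and their median (black bar) in fibroblast subclusters 0, 3, 4 and 5 (x axis) for the fibrillar collagen genes and 4 lists of the collagen pathway, each restricted to genes past the 25% detection limit, with 1 library per genotype. In subcluster 5 the medians are -0.32 for fibrillar collagens, -0.50 for other collagens and -0.31 for folding and hydroxylation, and -0.00 for fibril-associated matrix, and the lowest symbol is Cthrc1 in subcluster 4 at -3.05.

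Of the genes that degrade collagen or restrain its degradation, 2 were lower and 3 higher of 6 in subcluster 0, 2 and 2 of 7 in subcluster 3, 3 and 2 of 7 in subcluster 4, and 4 and 0 of 7 in subcluster 5, with medians of 0.23, 0.10, -0.11 and -0.52. Timp2, an inhibitor of matrix metalloproteinases, was lower in all 4 subclusters, at -0.87, -1.12, -0.60 and -0.52, with 100% of cells detected throughout. Timp1, of the same family, was at -0.47, 0.41, -0.47 and -1.33. Of the collagen receptors, 0 were lower and 0 higher of 4 in subcluster 0, 1 and 0 of 3 in subcluster 3, 1 and 2 of 5 in subcluster 4, and 1 and 1 of 4 in subcluster 5, with medians of 0.12, -0.15, 0.20 and 0.01. Ddr2, a receptor kinase for fibrillar collagens that fibroblasts carry, was at 0.18, 0.10, 0.20 and -0.33, and Ddr1, its relative, at 0.10, -0.55, 0.37 and 0.10.

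The genes whose 4 log2 fold changes lay closest to the medians of the fibrillar collagens, by root mean square difference over 4 subclusters among 7074 genes, were Zfp639 (0.0397), Odc1 (0.0472), Zbtb1 (0.0516), Eif3j1 (0.0544) and Slc39a7 (0.0572). None of them is a matrix gene. Among the members the same distance was 0.0806 for Col5a1, 0.109 for Col1a1, 0.116 for Col5a2, 0.232 for Col3a1, 0.248 for Col1a2, 0.395 for Col11a1 and 1.07 for Col5a3, so the median profile is nearest to that of Col5a1. This order follows in part from the medians being values of the members themselves. The median is the Col5a1 value in subclusters 0 and 4 and the Col5a2 value in subclusters 3 and 5.

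Of the 7 fibroblast markers, 5 passed the detection limit in subclusters 0 and 3, 6 in subcluster 4 and 7 in subcluster 5. Dcn was at 100% in both libraries throughout, while Tcf21 was at 2.1% of control cells and is listed at 0 in the library labelled depleted in subcluster 0, where Dpt was at 5.5% and 15.6%. Past the size limit, 0 were lower and 2 higher in subcluster 0, 1 and 2 in subcluster 3, 2 and 2 in subcluster 4, and 2 and 3 in subcluster 5. In subcluster 5 Gsn was at -2.35 and Mfap5 at -1.48, while Tcf21 was at 1.13, and Pdgfra was at 1.35, 0.76 and 0.39 in subclusters 0, 3 and 4. Transcripts of other cell types differed between the libraries in both directions. The 4 hemoglobin genes of the erythroid list had lower shares in the library labelled depleted in all 4 subclusters, at 4.3% to 45% in the control and 0% to 4.3% in the library labelled depleted. All 5 neutrophil markers had lower shares there in subclusters 0, 3 and 4, with medians of 35.9% and 3.1% in subcluster 0, and 3 of 5 in subcluster 5. All 6 macrophage markers were lower in share in subcluster 0, and 4 of 6 in each of the others, although in subcluster 3 the means of 4 of the 5 past the detection limit were higher. The 3 T cell markers in the tables had higher shares in the library labelled depleted in subclusters 3, 4 and 5, with Cd3d at 10% and 39.1%, 7.5% and 20%, and 13% and 42.9%, and 2 of 3 had higher shares in subcluster 0. Of the 4 mural markers, 3 had lower shares in subcluster 5, where Kcnj8 (17.4% of control cells) and Abcc9 (21.7%) are listed at 0 in the library labelled depleted, against 1 in subcluster 0 and 0 in subclusters 3 and 4. Of the 3 endothelial markers in the tables, Pecam1 and Cdh5 were at or under 9.5% throughout, and Kdr stood at 0.62 in subcluster 0 and -0.30 in subcluster 4. Cardiomyocyte and B cell markers reached at most 20% in any subcluster of either library. Their part in the collagen values was not tested.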

How the data were processed

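Per the study's methods, the authors aligned reads with Cell Ranger (version 6.1.1 in the submitters' processing notes) to GRCm39 with added reporter sequences, filtered genes and cells, normalized with SCTransform in Seurat, clustered the cells, reran the fibroblast cluster alone, and compared libraries within each cluster by a rank sum test over cells. The deposited tables give a log2 fold change of mean corrected counts plus a pseudocount of 1, the fraction of cells with a count in each library (printed here as percent), and p-values. The deposited p-values served only as a filter in 1 alternative. The pseudocount was checked on genes at 0 in 1 library, and the calculations were tested on simulated data. No doublet caller is named.

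Cluster tables held genes that reached 0.25 in size and had a count in 25% of the cells of 1 library or more, and subcluster tables held 15059 genes without such limits. Values were taken as deposited, and counts, medians and bounds were computed from them with Python 3.11.15 and pandas 2.3.3. The tables used hold no cell number or depth for a cluster in either library. No interval was computed, since cells are not replicates of a genotype. The members and gene lists were chosen with earlier results of these data known. Named were all 7 members, from each pathway list the genes past the detection limit in all 4 subclusters and past 0.25 in 1 direction in at least 3 (or else the 2 with the largest absolute value), and the 5 genes nearest to the member medians. Sparc, Dcn, Fn1 and Gsn in other clusters were chosen after their values were seen. Gene coordinates are from GENCODE on GRCm39 and promoters from RefSeq on GRCm38.p6. Tried as alternatives were other size and detection limits, the log2 ratio of the shares, centring on the median of all genes, means for medians (also without Col5a3), and the adjusted p-value filter.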

Additional observations from a re-analysis of the deposited data

Results flagged for a closer look

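For 4 of the fibrillar collagen genes the log2 fold change reached 0.25 in size in opposite directions in different cell groups. How many of all genes do so was not counted. Within single subclusters, 9.87% to 25.2% of genes past the detection limit reached this size in a given direction. The difference between the groups was not tested for any of the 4 genes, since each value compares 1 library with 1 library. Collagen transcripts in clusters 10 and 18 were read as background above, and no member listing there remained under the adjusted p-value filter. Col3a1 was at 0.33 in the fibroblasts of cluster 5 and at -0.64 in the T cells of cluster 10, where control cells were the minority. Col5a1 was at -0.48 in fibroblast subcluster 5 and at 0.31 in the neutrophils of cluster 18. In cluster 18 it was listed only through its share in the library labelled depleted (29.4%, against 9.1% in the control), and few cells may stand behind these shares. Col5a2 was at 0.46 in fibroblast subcluster 0 and at -0.32 in subcluster 5. Col5a3 was at 1.43 in fibroblast subcluster 4 and at -1.61 in subcluster 5.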

How the results depend on the processing

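No paired analysis was possible because both genotypes were a single library. The count of 4 lower values in the subclusters became 2 at a size limit of 0.5, 8 at 0.1 and 2 by the log2 ratio of the shares, and the count of 4 higher values became 10 at a size limit of 0.1. Both counts stayed within 1.5 times under the other detection limits and under centring on all genes. By the log2 ratio of the shares the member median was 0 in all 4 subclusters, because genes detected in every cell of both libraries have a ratio of 1. The mean over the members was 0.13 in subcluster 3 and 0.12 in subcluster 4, where the median is -0.09. Without Col5a3, a setting added after the data were seen, the means in subclusters 0, 3, 4 and 5 were 0.22, 0.06, -0.10 and -0.29, so that the turn of sign in subcluster 4 rests on Col5a3. The median of the members past the detection limit in subcluster 4 was -0.047. In cluster 5, 0 of the 2 listings remained at a size limit of 0.5 and 1 under the adjusted p-value filter. In the other clusters, 3 of the 9 lower listings remained at 0.5 and 0 under the adjusted p-value filter, and the 1 higher listing of Col5a1 remained under neither (0 and 0). The tables used hold neither the cell number nor the depth behind a share, and any cluster or subcluster value may rest on few cells. The smallest share above 0 of any gene was 0.7% in the control and 3.1% in the library labelled depleted in subcluster 0, 3.3% and 4.3% in subcluster 3, 2.5% and 10% in subcluster 4, and 4.3% and 4.8% in subcluster 5, so shares are coarsest in the library labelled depleted of subcluster 4, where Col5a3 stood at 1.43 and Cthrc1 at -3.05.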
